A study of Mus musculus with 3 samples.

Results

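The cells described here are the T cells and natural killer (NK) cells of mouse bone marrow, taken by their raw counts of unique molecular identifiers (UMIs). The exclusions were meant to leave out group 2 innate lymphoid cells and had no rule for other innate lymphoid cells. A cell entered the gate when Cd3d, Cd3e, Cd3g, Klrb1c, Klrd1 and Ncr1 together had at least 2 UMIs. It was left out when Cd79a had more than 1 UMI, when Siglech or Il1rl1 had any, or when Gata3 and Rora were both present. The gate held 339 of 22376 kept cells. Of these, 280 had a UMI of Cd3d, Cd3e or Cd3g and are called T cells, and 59 had none and are called CD3-negative gated cells.

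The libraries were 2 from male mice of the Ep300-Znf384-V5-HA genotype (fusion replicates 1 and 2), a tagged fusion of the acetyltransferase gene Ep300 with Znf384, and 1 labelled wild type, also male, all aged 6 weeks. By its title, the study asks how ZNF384 fusion proteins found in acute leukemia disturb blood lineages. Marrow of femur and tibia was freed of red cells, and each library joined 5000 live unselected cells with 5000 live cells left after depletion of lineage-marked cells, so a share of cells is a share of that mixture. The labels name neither the promoter that drives the fusion nor separate animals for the libraries, and the deposited features hold none for the fusion itself.

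T cells carry an antigen receptor that signals through the CD3 chains, encoded by Cd3d, Cd3e and Cd3g. NK cells carry no such receptor. They kill stressed or infected cells through germline-encoded receptors such as NKp46 (Ncr1), NK1.1 (Klrb1c), CD94 (Klrd1) and the Ly49 family (Klra genes). NK cells develop in the marrow, whereas T cells mature in the thymus and reach the marrow from the blood, where memory CD8 T cells in particular are maintained.

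The libraries of fusion replicate 1, fusion replicate 2 and wild type gave 7538, 7213 and 7625 kept cells with 94756020, 110130999 and 90328935 UMIs. No cell barcode was shared between the gated cells of any pair of libraries, and 13 to 17 were shared between the kept cells of a pair. In the T cells the median depth was 2682 and 4288.5 UMIs per cell in the fusion libraries, against 4824 in wild type.

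Fewer gated cells were found in the fusion libraries. They were 82 and 65 cells in fusion replicates 1 and 2, or 1.09% and 0.901% of kept cells, against 192 cells or 2.52% in wild type. T cells numbered 77 and 64, or 1.02% (95% Clopper-Pearson interval 0.807 to 1.28) and 0.887% (0.684 to 1.13), against 139 or 1.82% (1.53 to 2.15) in wild type. The mean fusion share was thus 0.524 times that of wild type. CD3-negative gated cells numbered 5 and 1, or 0.0663% (0.0215 to 0.155) and 0.0139% (0.000351 to 0.0772), against 53 or 0.695% (0.521 to 0.908), a ratio of 0.0577. The fusion and wild-type intervals did not overlap for either kind of cell in this gate, and they cover counting error only. Permuting the labels of the 3 libraries, as an exact two-sided test, gave p = 0.333 for each share, the smallest value that it can give. With 1 wild-type library, genotype and library cannot be told apart.

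**Figure D1:**
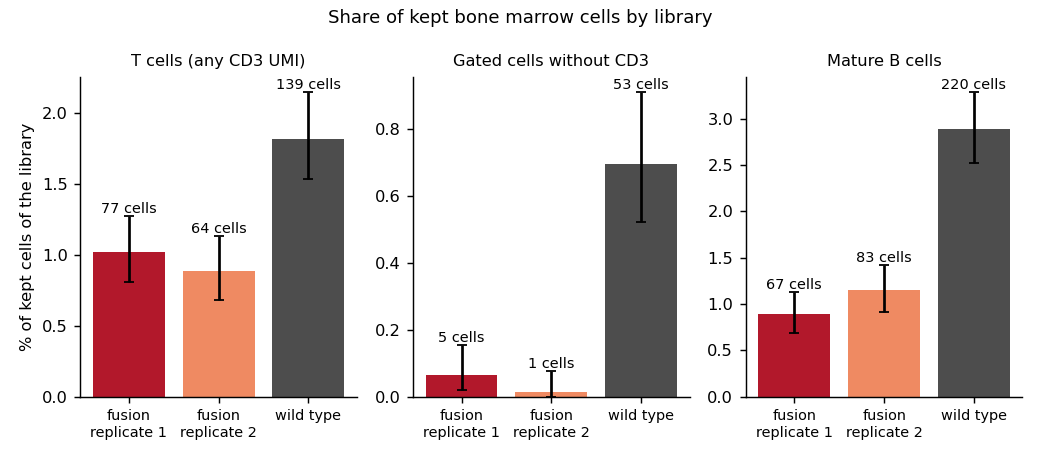
Share of kept cells (percent) that were T cells, gated cells without CD3 or mature B cells in fusion replicate 1, fusion replicate 2 and wild type; whiskers are 95% Clopper-Pearson intervals and the number of cells stands above each bar. The fusion libraries had 77 and 64 T cells and 5 and 1 CD3-negative cells, against 139 and 53 in wild type.

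Mature B cells, taken as a comparison by at least 2 Cd79a UMIs, a UMI of Ighd or Fcer2a and no gate gene, were also fewer. Their share was 0.889% and 1.15% in the fusion libraries, against 2.89% in wild type, a ratio of 0.353. Within the gate, T cells made up 93.9% and 98.5% of the cells in the fusion libraries, against 72.4% in wild type. Each share kept its direction when predicted doublets were removed, when the gate asked for 3 UMIs and when each cell was thinned to 1000 UMIs before gating. After thinning, T cells were 0.743% (0.562 to 0.964) and 0.638% (0.467 to 0.850) of kept cells in the fusion libraries, against 1.17% (0.938 to 1.43) in wild type, so the interval of fusion replicate 1 then overlapped that of wild type. When cells with more UMIs of other lineages than of the gate genes were removed, 20 and 21 fusion T cells remained, against 36 in wild type, and their intervals overlapped (0.162 to 0.409 and 0.180 to 0.445, against 0.331 to 0.653). That filter left 0 and 0 CD3-negative cells in the fusion libraries, against 2 in wild type, where the interval of 0.00318 to 0.0947 overlapped those of fusion (up to 0.0489 and 0.0511). T cells were then 100% of the gate in both fusion libraries, against 94.7% in wild type.

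At the edge of the gate, 13 and 5 fusion cells and 37 wild-type cells held exactly 2 UMIs of the gate genes. Just outside it, 100 and 102 fusion cells and 275 wild-type cells held 1 UMI. A constant-region transcript of the alpha or beta T cell receptor was found in 5 and 3 of the fusion cells just inside, against 2 of the wild-type cells. Just outside, 6 and 5 fusion cells and 12 wild-type cells had one. Before the exclusions, 110 and 92 fusion cells and 266 wild-type cells had at least 2 gate UMIs. The joint presence of Gata3 and Rora removed 9 and 6 fusion cells and 21 wild-type cells, of which 9, 6 and 17 also had a CD3 UMI, so this filter also took CD3-bearing cells.

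The CD3-negative gated cells were mixed by their genes, and the NK label held for part of those in wild type. At least 2 of the NK genes Eomes, Tbx21, Gzma, Prf1 and Il2rb were found in 1 and 0 of these cells in the fusion libraries, against 27 of 53 in wild type. None of the 6 CD3-negative gated cells of the fusion libraries had a UMI of Ncr1 or Klrb1c. Each had entered the gate on 2 or 3 UMIs of Klrd1 alone. Of the 53 in wild type, 27 had Ncr1 and 30 had Klrb1c, while 21 had Klrd1 as the only gate gene, 19 of them without any of the 5 NK genes. Irf8, a transcription factor of dendritic and monocyte progenitors, was present in 5 of the 6 fusion cells and in 40 of the 53 wild-type cells, 22 of which had at least 5 UMIs. Of these 40 wild-type cells, 20 had Klrd1 as the only gate gene. The others carried Ncr1 or Klrb1c, so Irf8 was not confined to cells without these NK receptors. The fusion cell without Irf8 carried 271 UMIs of Mcpt8 and 488 of Prss34, which are basophil proteases. It was also the only fusion cell of this group with at least 2 of the 5 NK genes.

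NK transcripts were also scarce in the fusion libraries when all kept cells were summed, the gated cells included. Over all kept cells, Ncr1 (chromosome 7, 4337724 to 4345164, GRCm38) had 6 and 5 UMIs in the fusion libraries, against 170 in wild type. The Ly49 receptor gene Klra4 had 0 and 0 UMIs in the fusion libraries, against 81 in wild type. Klra8, another Ly49 receptor gene, had 0 and 0, against 38. Klri2, a lectin-like receptor gene of the same chromosome 6 cluster, had 4 and 4, against 76. Eomes, the T-box factor needed for mature NK cells, had 29 and 36 UMIs, against 166. In these sums every one of these genes was lower in both fusion libraries than in wild type. Most of their wild-type UMIs lay in gated cells, so the sums are not separate from the gate. Outside the gate Ncr1 had 3 and 3 UMIs in fusion, against 27 in wild type, and Klra4 had 0 and 0, against 16. There Klra8 had 0 and 0, against 6, and Klri2 had 4 and 4, against 17. Eomes had 5 and 12 outside the gate, against 11, and so was not lower in both. The Ly49 genes are near-identical copies, so the split of reads among them is uncertain.

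**Figure D2:**
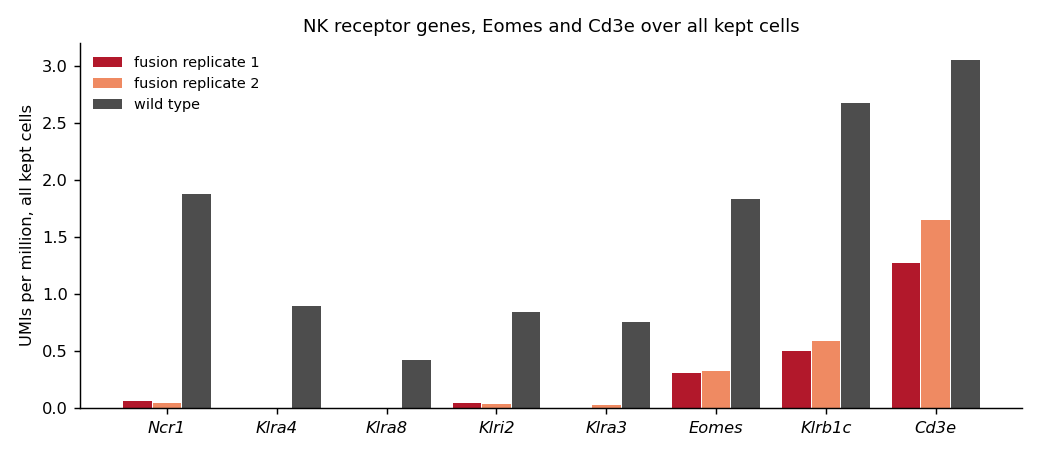
Level in CPM (UMI counts scaled to a common library total) over all kept cells for 5 NK receptor genes, Eomes, Klrb1c and Cd3e in fusion replicate 1, fusion replicate 2 and wild type (1 bar per library, without error bars). Klra4 and Klra8 had no UMI in either fusion library, and Ncr1 stood at 0.0633 and 0.0454 in the fusion libraries, against 1.88 in wild type.

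All kept cells were also counted by the same NK genes. Kept cells with no CD3 UMI and at least 2 of the same 5 NK genes, whether inside or outside the gate, numbered 1 and 1 in the fusion libraries, against 34 in wild type. The cell of fusion replicate 1 was the one with 271 Mcpt8 and 488 Prss34 UMIs. The cell of fusion replicate 2 lay outside the gate and had a Gata3 UMI. In wild type 7 of the 34 lay outside the gate, 2 of them without a Gata3 UMI. In the CD3-negative sum of the wild-type library the granule protease gene Gzma reached 1711 CPM, Klrk1 (NKG2D) 451 CPM, Klrd1 407 CPM and Ncr1 214 CPM. The T cells of the same library had 305 CPM of Gzma, 305 CPM of Klrk1, 299 CPM of Klrd1 and 59.0 CPM of Ncr1. These values describe cells split by the CD3 genes and were not tested. Because the fusion sums of CD3-negative cells held only 5 cells and 1 cell, of which none had Ncr1, no gene is named from their fit, in which edgeR called 9 of 1421 genes (0.633%). The fusion effect differed between T cells and CD3-negative cells in 7 of 7466 genes (0.0938%), among them Mcpt8 and Prss34, whose UMIs in the fusion CD3-negative cells came almost wholly from the single cell above.

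The T cells carried the transcripts of the antigen receptor in every library. A UMI of Trac, Trbc1 or Trbc2, the receptor's constant regions, was found in 70 of 77 and 60 of 64 fusion T cells, against 114 of 139 wild-type T cells. Such transcripts were not confined to cells with CD3. When a constant-region UMI or at least 2 CD3 UMIs defined T cells, the CD3-negative side of wild type fell from 53 to 30 cells. In the fusion libraries it went from 5 and 1 to 4 and 1. The level of Cd3d was 690 and 496 CPM in the fusion libraries, against 597 in wild type. Cd3e stood at 334 and 384 CPM, against 363, and Cd3g at 616 and 528 CPM, against 516. None of the 3 CD3 genes had a UMI in the mature B cells or in the CD3-negative cells of any library; the gate fixed the first through its exclusion of gate genes and the second by definition.

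Most T cells that showed a co-receptor were CD8 cells. Cells with Cd8a or Cd8b1 and no Cd4 numbered 27 of 77 and 32 of 64 in the fusion libraries, against 45 of 139 in wild type. Cells with Cd4 alone numbered 5 and 1, against 7. Foxp3, the factor of regulatory T cells, had 4 and 1 UMIs in the fusion T cells, against 2. Trdc, the constant region of the delta chain, stood at 155 and 193 CPM in the fusion libraries, against 205 CPM, and was not called.

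NK receptor transcripts were also found in T cells. A UMI of Klrb1c, Klrd1 or Ncr1 was present in 23 of 77 (29.9%) and 27 of 64 (42.2%) fusion T cells, against 85 of 139 (61.2%) in wild type. These 3 genes helped to choose the cells, so the shares are a description without a test. They were not thinned, and the fusion T cells had the lower median depths given above. Ncr1 alone was found in 2 and 2 fusion T cells, against 19 in wild type, and in none of the mature B cells. After thinning to 1000 UMIs, 1 and 0 fusion T cells kept an Ncr1 UMI, against 8 in wild type. At least 2 of the 5 NK genes listed above were found in 23 of 77 and 25 of 64 fusion T cells, against 66 of 139 in wild type. T cells with only 1 or 2 CD3 UMIs numbered 10 and 7 in the fusion libraries, against 30 in wild type. Among them, 6 and 4 fusion cells had a receptor constant region, against 10 in wild type.

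Gene levels in T cells were compared on UMI counts summed per library with edgeR's quasi-likelihood test and Benjamini-Hochberg adjustment over 6413 genes. Of these, 48 genes were called at an adjusted p under 0.05 (0.748%), 15 higher in fusion (0.234%) and 33 lower (0.515%). The genes that stood higher included surface and membrane proteins of T cells, and those that stood lower included chemokines, a tissue-homing receptor and the activation marker Cd69. Genes of other blood lineages were called as well. Klf1 and Apoe stood higher, and basophil genes (Mcpt8, Cpa3 and Prss34) and neutrophil or monocyte genes (among them S100a8, Retnlg and Csf3r) stood lower. The median log2 fold change over all tested genes was 0.01. The test has 1 residual degree of freedom, from the fusion pair, and the single wild-type library is taken to vary like that pair. DESeq2 called 2 genes on the same sums, 0 higher and 2 lower in fusion, with 42 at an unadjusted p under 0.05. Bias-adjusted deviances in edgeR gave 14 calls, 2 higher and 12 lower. A gate of at least 3 UMIs left 4, of which 0 were higher and 4 lower. The calls below, and the higher ones above all, therefore rest on this edgeR fit and gate.

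The upstream sequences of 4 genes at the centre of these results are shown, since the letters before the start are where a regulator's motif would lie: 2 genes that were lower (Ncr1 and Cxcr6) and 2 that were higher (Dapl1 and Ly6c1). Each gives the 250 bases before the RefSeq start on the gene's strand, from GRCm38.p6, with capitals marking the searched motifs on either strand: the RUNX core TGTGGT, the T-box letters TCACAC and the TCF/LEF letters CTTTGA.
Ncr1, chr7:4337474-4337723, plus strand: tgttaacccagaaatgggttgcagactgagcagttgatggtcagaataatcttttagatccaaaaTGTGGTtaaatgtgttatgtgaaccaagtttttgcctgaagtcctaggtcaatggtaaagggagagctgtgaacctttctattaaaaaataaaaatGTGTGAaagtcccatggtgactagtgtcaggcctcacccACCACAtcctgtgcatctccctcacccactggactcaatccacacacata
Cxcr6, chr9:123806227-123806476, plus strand: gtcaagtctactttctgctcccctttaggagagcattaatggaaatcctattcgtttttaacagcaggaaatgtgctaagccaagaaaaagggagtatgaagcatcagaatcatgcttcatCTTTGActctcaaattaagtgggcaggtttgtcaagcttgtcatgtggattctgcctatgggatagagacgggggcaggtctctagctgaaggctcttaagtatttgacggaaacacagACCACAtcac
Dapl1, chr2:59484403-59484652, plus strand: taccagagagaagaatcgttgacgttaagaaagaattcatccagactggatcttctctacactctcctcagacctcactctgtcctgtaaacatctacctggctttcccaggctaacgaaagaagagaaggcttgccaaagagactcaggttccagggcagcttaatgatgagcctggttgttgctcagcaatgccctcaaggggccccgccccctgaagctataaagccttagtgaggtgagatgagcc
Ly6c1, chr15:75048838-75049087, minus strand: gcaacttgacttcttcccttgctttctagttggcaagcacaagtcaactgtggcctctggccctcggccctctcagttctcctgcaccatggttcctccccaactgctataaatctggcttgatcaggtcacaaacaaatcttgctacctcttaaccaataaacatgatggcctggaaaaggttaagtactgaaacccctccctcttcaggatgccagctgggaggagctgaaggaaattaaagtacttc

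The Ncr1 window held the RUNX core 185 and 50 bases before the start, the nearer one on the opposite strand, and the T-box letters 89 bases before it, also on the opposite strand. The Cxcr6 window held the RUNX core 10 bases and the TCF/LEF letters 129 bases before the start. The Dapl1 and Ly6c1 windows held none of the 3. No match overlapped another. Of 27025 gene windows of the same length, 14.2% held the RUNX core, 12.2% the T-box letters and 14.0% the TCF/LEF letters, so single matches of this kind are frequent.

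Ly6c1, which encodes a small lipid-anchored surface protein of memory CD8 T cells, stood at 92.8 and 67.9 CPM in fusion T cells, against 5.81 in wild type. Both fusion libraries stood above wild type, and the naming rule required them to lie on the same side of it. The log2 fold change was 3.72 ± 0.58 (SE), with an adjusted p of 1.49e-07 by edgeR. Its UMIs came from 16 of 77 and 11 of 64 fusion T cells, against 3 of 139, and from 0 and 0 fusion mature B cells, against 1 in wild type. Ly6c1 lies on chromosome 15 (75044018 to 75048830, minus strand), 6.54 megabases from Ep300. Its close copy Ly6c2 went the other way in level, at 378 and 622 CPM in the fusion libraries, against 960 in wild type, without a call (adjusted p = 0.217 by edgeR). The 2 genes are near-identical, so how reads were split between them is uncertain.

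Dapl1, a marker of naive and stem-like memory CD8 T cells, was 83.6 and 170 CPM in fusion T cells, against 23.2 in wild type. Its log2 fold change was 2.45 ± 0.43 (SE; adjusted p = 5.97e-06 by edgeR), and 13 and 20 fusion T cells held it, against 6 in wild type. Kcnn4, the calcium-activated potassium channel that sustains calcium entry in activated T cells, was 149 and 102 CPM, against 27.6. It rose by 2.16 ± 0.41 (SE) on the log2 scale, with an adjusted p of 9.69e-05. It was present in 23 and 25 fusion T cells, against 17 in wild type.

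Ly6a (Sca-1), a surface protein of stem cells and of T cells responding to interferon, was 133 and 209 CPM in fusion T cells, against 63.9 in wild type. The log2 fold change was 1.43 ± 0.35 (SE; adjusted p = 0.0122 by edgeR). A single cell gave 27 of the 80 UMIs of fusion replicate 2. Ly6a lies 6.59 megabases from Ep300 on the same chromosome as Ly6c1. Il2rb, on that chromosome at 3.11 megabases from Ep300, was lower in fusion T cells and was not called. Whether level went with distance from Ep300 was not tested. Pdlim4, a scaffold protein of the actin cytoskeleton, had 17 and 11 UMIs in fusion T cells and 0 in wild type, which is at least 10.2-fold higher against a floor of 3 UMIs in the wild-type sum. Gzmb, the killer protease granzyme B, was 189 and 188 CPM, against 78.4, a log2 fold change of 1.26 ± 0.35 (SE; adjusted p = 0.0381 by edgeR). In fusion replicate 2 a single cell gave 31 of its 72 UMIs. Nrip1, a nuclear receptor co-repressor, and Acp5, an acid phosphatase, were also called higher. They stood at 145 and 133 CPM, against 50.8, and at 173 and 170 CPM, against 68.3.

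The fall of Cxcr6 was spread over many cells. Cxcr6, the receptor for CXCL16 that marks resident memory and innate-like T cells, was 24.8 and 28.7 CPM in fusion T cells, against 109 in wild type. The log2 fold change was -2.01 ± 0.41 (SE; adjusted p = 0.000476 by edgeR). Its UMIs came from 3 of 77 and 8 of 64 fusion T cells, against 34 of 139 in wild type, and no wild-type cell gave more than 7 of 75. Outside the gate its level was 0.180 and 0.201 CPM in the fusion libraries, against 1.61. Cd69, an early activation protein that also holds cells in tissue, was 127 and 159 CPM, against 370, with a log2 fold change of -1.36 ± 0.31 (SE; adjusted p = 0.00390). It was found in 23 of 77 and 24 of 64 fusion T cells, against 73 of 139. In mature B cells Cd69 stood at 273 and 156 CPM in the fusion libraries, against 158 in wild type.

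Klra1, a Ly49 receptor gene, was 58.8 and 15.7 CPM in fusion T cells, against 113 in wild type (log2 fold change -1.65 ± 0.40, SE; adjusted p = 0.00796 by edgeR). Ncr1 was 9.28 and 5.23 CPM, against 66.8, and is given without a test because it is a gate gene. The chemokine genes Ccl3 and Ccl4 fell as well. Ccl3 stood at 12.4 and 26.1 CPM in fusion T cells, against 216 in wild type, and Ccl4 at 27.9 and 39.2 CPM, against 306. Their log2 fold changes were -3.44 ± 0.40 and -3.17 ± 0.35 (SE), with adjusted p-values of 8.02e-15 and 1.25e-15 by edgeR. In wild type a single T cell gave 75 of the 149 Ccl3 UMIs and 84 of the 211 Ccl4 UMIs.

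**Figure D3:**
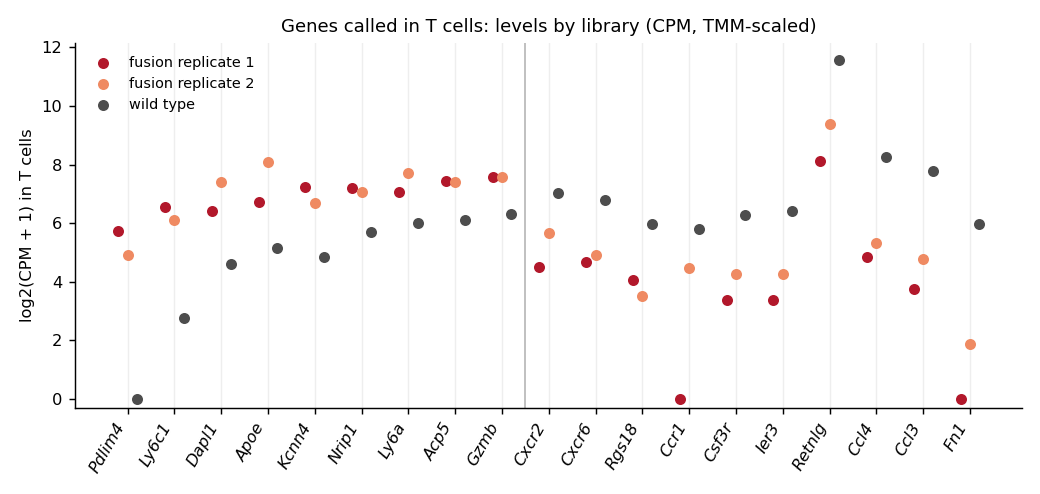
Level in T cells, as log2(CPM + 1) on TMM-scaled library sizes, of the named genes called by edgeR in fusion replicate 1, fusion replicate 2 and wild type (1 point per library); genes left of the line were higher in fusion and those right of it lower. In each gene both fusion points lie either above or below the wild-type point, as the naming rule required.

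The shares of cells kept their direction at equal depth. After each cell was thinned to 1000 UMIs, Kcnn4 was found in 14.3% and 9.38% of fusion T cells, against 2.16% in wild type. Ly6c1 was found in 11.7% and 9.38%, against 0.719%. Dapl1 was found in 7.79% and 10.9%, against 2.16%. Cxcr6 was found in 2.60% and 4.69% of fusion T cells, against 12.2%, and Cd69 in 15.6% and 10.9%, against 28.1%. Several of these shares rest on very few cells, and they were not tested. For none of these genes were the intervals of both fusion libraries clear of that of wild type. In mature B cells, which should lack Cxcr6 and Dapl1, neither gene had a UMI in any library. Kcnn4 was found in 2.99% and 2.41% of thinned fusion B cells, against 1.82% in wild type. Median depths in mature B cells were 2852 and 3336 UMIs in the fusion libraries, against 2896.5 in wild type.

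**Figure D4:**
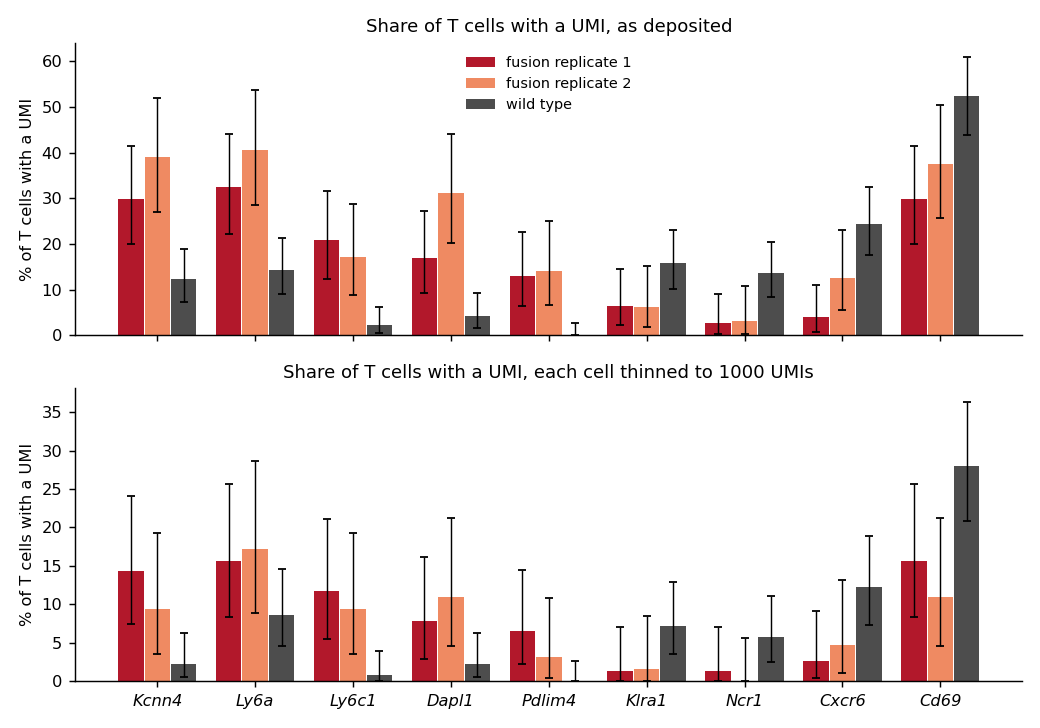
Percent of T cells with at least 1 UMI of 9 genes in fusion replicate 1, fusion replicate 2 and wild type, as deposited (upper panel) and after thinning each cell to 1000 UMIs (lower panel); whiskers are 95% Clopper-Pearson intervals. As deposited, Pdlim4 was found in 10 and 9 fusion T cells and in 0 wild-type T cells.

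Genes of other blood lineages moved with genotype in the T cell sums too. Of 7 neutrophil markers tested, 2 (S100a8 and Retnlg) fell: S100a8, an abundant calcium-binding granule protein, was 11435 and 10526 CPM in fusion, against 32422 in wild type. Retnlg was 279 and 672 CPM, against 3069. All 7 neutrophil markers were detected in the T cells of each group, and together they held 49659 and 29854 CPM in fusion, against 75367 in wild type. T cells with over 5% neutrophil UMIs numbered 7 of 77 and 5 of 64 in fusion, against 24 of 139 in wild type. Csf3r, Cxcr2, Ccr1 and Rgs18, which neutrophils or monocytes also express, were named among the genes called lower. The part of neutrophil RNA in these calls was not tested beyond the stricter cells given below.

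Of 6 basophil and mast cell markers, 3 had enough UMIs to be tested and all 3 (Mcpt8, Cpa3 and Prss34) were called lower. Mcpt8 was 9.28 and 2.61 CPM in fusion T cells, against 462 in wild type, and Prss34 was 3.09 and 26.1 CPM, against 436. A single wild-type T cell gave 171 of the 318 Mcpt8 UMIs and 193 of the 300 Prss34 UMIs. With T cells defined by at least 2 CD3 UMIs or a receptor constant region, the log2 fold changes turned to 0.13 for Mcpt8 and 1.07 for Prss34, since the fusion cell with 271 Mcpt8 UMIs then counted as a T cell. Summed over the 6 markers the level was 16.0 and 32.6 CPM, against 883, with Cd200r3 and Fcer1a at 0 in both fusion libraries. Fn1, the fibronectin gene, had 0 and 1 UMIs in fusion T cells, against 42 in wild type, of which 36 came from 1 cell. The wild-type level was 38.3 times that of fusion, with a 95% counting interval of 6.51 to 1548.

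Of 3 erythroid markers tested, 1 (Klf1) was called higher. Klf1, the erythroid master factor, was 68.1 and 39.2 CPM in fusion T cells, against 11.6 in wild type (adjusted p = 0.0327 by edgeR). The call was lost without cells over 5% neutrophil UMIs (adjusted p = 0.0694) and in the stricter T cells given below (adjusted p = 0.202). The 7 erythroid markers summed to 933 and 637 CPM, against 317, with Hba-a2 at 0 in every library. A single cell gave 18 of the 22 Klf1 UMIs of fusion replicate 1. Outside the gate Klf1 stood at 161 and 145 CPM, against 74.8. Apoe, an apolipoprotein gene expressed by many marrow cells, was 105 and 269 CPM in fusion T cells, against 34.9 (adjusted p = 2.54e-07). It came from 8 and 7 fusion T cells, with 44 of the 103 UMIs of replicate 2 in 1 cell. Outside the gate Apoe was 355 and 328 CPM, against 207. The B cell marker Ebf1 was at 0 in fusion T cells. The 6 B cell markers summed to 404 and 314 CPM in fusion, against 326.

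A stricter set of T cells, added after the data had been seen, was also fitted, with at least 3 CD3 UMIs, no Ncr1 UMI and at most 5% neutrophil UMIs. It held 63 and 52 fusion cells and 90 wild-type cells. In these, 20 of 5758 genes were called by edgeR (0.347%), 9 higher in fusion (0.156%) and 11 lower (0.191%). Ly6c1 (adjusted p = 0.000623), Dapl1 (adjusted p = 0.000205), Kcnn4 (adjusted p = 0.00742) and Gzmb (adjusted p = 0.0376) were called higher again. Cxcr6 (adjusted p = 2.38e-06), Cd69 (adjusted p = 0.00193), Ccl3, Ccl4 and Ier3, an early response gene, were called lower again. Retnlg (adjusted p = 0.944) and S100a8 (adjusted p = 0.890) were not called there, nor were Ly6a (adjusted p = 0.365), Nrip1 (adjusted p = 0.200), Acp5 (adjusted p = 0.265), Pdlim4 (adjusted p = 0.195) and Klra1 (adjusted p = 0.269). Gzma, which missed the threshold over all T cells (1083 and 523 CPM, against 346; adjusted p = 0.0651), was called higher in the stricter cells (adjusted p = 0.000200). In fusion replicate 1 a single T cell gave 199 of its 350 UMIs, and in replicate 2 a single cell gave 130 of 200. By contrast, DESeq2 on the sums of all T cells and edgeR at a gate of at least 3 UMIs called no gene higher.

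**Figure D5:**
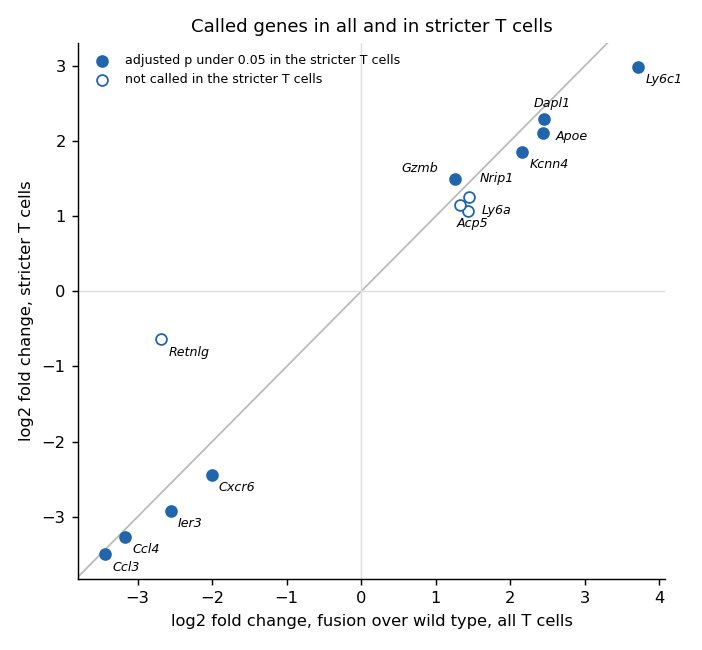
Log2 fold change, fusion over wild type, of the named called genes in all T cells (horizontal axis) and in the stricter T cells (vertical axis), for genes tested in both and with UMIs in each group; filled points had an adjusted p under 0.05 by edgeR in the stricter cells. Retnlg moved to -0.64 in the stricter cells, against -2.69 in all T cells, while Ly6c1, Dapl1 and Kcnn4 kept the same sign and a call.

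Beyond the lists of other lineages given above, no gene list had more than 2 members called in T cells. Of 22 genes of the T cell receptor and its proximal signalling, 22 were tested and 0 were called, with a median log2 fold change of 0.12, against 0.01 over all genes. Trbc2, a receptor constant region, was 1046 and 1084 CPM in fusion, against 870 (adjusted p = 0.990 by edgeR). Of 14 naive and central memory genes, 1 (Dapl1) was called, and 9 of 14 were positive, with a median of 0.38. Over all tested genes, 3247 of 6413 were positive. Klf2, a factor that keeps T cells quiescent and circulating, was 888 and 768 CPM in fusion T cells, against 526 in wild type, and Satb1, a chromatin organizer, was 569 and 434 CPM, against 277. Neither passed (adjusted p = 0.799 and 0.396).

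Lists of activation, NK receptor and effector genes had 1 member called each, not all in 1 direction. Over all 6413 tested genes, 0.748% were called and 3166 were negative. Of 7 tested genes of activated and regulatory T cells, 7 were negative and 1 (Cd69) was called, with a median of -0.50. Cxcr3, a receptor of effector T cells, was 30.9 and 83.6 CPM in fusion, against 116, and was not called (adjusted p = 0.313). Of 15 tested NK receptors and adaptors, 14 were negative and 1 (Klra1) was called, with a median of -0.69. Hcst, an adaptor of NKG2D, was 297 and 533 CPM, against 620 (adjusted p = 0.842). Of 17 cytotoxic effectors, 1 (Gzmb) was called higher, and 2 were called higher in the stricter cells. Their median was -0.18, while their summed level went the other way, at 3960 and 3415 CPM in fusion, against 2965. Nkg7, a granule membrane protein, was 916 and 1165 CPM, against 1011 (adjusted p = 0.993).

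Of 8 chemokines and cytokines tested, 2 (Ccl3 and Ccl4) were called lower, with a median of -0.36. Ccl5, the most abundant of them, was 3141 and 4001 CPM in fusion T cells, against 4433 (adjusted p = 0.987 by edgeR). Of 18 migration and adhesion receptors, 1 (Cxcr6) was called lower. Selplg and Itga4, the adhesion molecules PSGL-1 and integrin alpha 4, were not called: Selplg was 399 and 476 CPM, against 466, and Itga4 was 303 and 282 CPM, against 336. Of 13 cytokine receptors, none was called, and Il2rb, the beta chain of the interleukin 2 receptor, was 282 and 358 CPM, against 523 (adjusted p = 0.583). Of 15 immediate early genes, 2 were called lower. Fosb was 58.8 and 94.1 CPM, against 180, and Ier3 was 9.28 and 18.3 CPM, against 84.2, with 34 of its 58 wild-type UMIs in 1 cell.

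No gene was called by edgeR among 13 tested T and NK transcription factors, 6 gamma delta and innate-like T genes, 11 NK maturation genes, 13 type I interferon response genes, 15 genes of MHC class I presentation, 17 cell cycle genes and 9 lysine acetyltransferases. Their median log2 fold changes in T cells were -0.19, 0.09, -0.28, -0.23, -0.17, -0.13 and 0.05. Id2, a factor of effector T cells and NK cells, was 279 and 246 CPM in fusion, against 431, and B2m, the shared chain of MHC class I, was 1832 and 1735 CPM, against 2032. None of the 9 markers of group 2 innate lymphoid cells had enough UMIs to be tested. The gate set this in part, since it left out cells with Il1rl1 or with both Gata3 and Rora.

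In the whole gate, where T cells and CD3-negative cells were summed together, 77 of 6622 genes were called by edgeR (1.16%), 27 higher in fusion (0.408%) and 50 lower (0.755%). The sums differ in make-up, since CD3-negative cells were 53 of 192 in wild type, so the share of NK cells and the RNA per cell cannot be told apart here. DESeq2 called 0 genes in it, with 49 at an unadjusted p under 0.05, against 459 by edgeR. Of 21 NK receptors and adaptors tested, 7 fell and none rose, with a median of -1.10. Klrk1 was 159 and 197 CPM in fusion, against 390 in wild type (adjusted p = 0.0261), and Klrb1f, a lectin-like receptor gene, was 51.3 and 32.8 CPM, against 110 (adjusted p = 0.0112).

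The T-box gene Eomes was 64.8 and 60.5 CPM in fusion gated cells, against 137 (adjusted p = 0.0365 by edgeR), and Il18r1, the interleukin 18 receptor chain, was 67.5 and 55.4 CPM, against 142 (adjusted p = 0.0172). Of 14 naive and central memory genes, 3 rose in the whole gate (Dapl1, S1pr1 and Ccr7), with a median of 0.74. S1pr1, the receptor that lets lymphocytes leave tissue, was 157 and 189 CPM, against 66.1 (adjusted p = 0.00237). Ccr7, the lymph node homing receptor, was 43.2 and 65.5 CPM, against 18.5 (adjusted p = 0.0485). Bcl11b, a factor of T cell commitment, was 224 and 222 CPM, against 98.7 (adjusted p = 0.0194). In T cells alone Bcl11b was 257 and 230 CPM, against 163, and was not called (adjusted p = 0.854).

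Of 6 progenitor and primary granule genes tested in the whole gate, 1 (Cd34) was called lower, with a median of -0.42. Ctsg, a primary granule protease gene, was 284 and 227 CPM in fusion, against 121, and was not called (adjusted p = 0.0529 by edgeR). Of 15 immediate early genes tested there, 4 were called lower. Klf4, one of them and also a monocyte factor, was 18.9 and 10.1 CPM in fusion, against 89.0 (adjusted p = 2.90e-06 by edgeR), and Cd34, a progenitor surface protein, was 21.6 and 12.6 CPM, against 58.1 (adjusted p = 0.0220). In wild type, 73 of the 101 Klf4 UMIs of the gate lay in CD3-negative cells. Prss34 was 1320 and 27.7 CPM in fusion, against 270. Its positive fold change came from 1 cell of fusion replicate 1 with 488 UMIs, and without that library it turned to -3.20 on the log2 scale. Ccr9, a gut and thymus homing receptor, was 89.1 and 50.4 CPM, against 20.3 (adjusted p = 0.00552), and Id3, an inhibitor of E proteins, was 54.0 and 45.4 CPM, against 13.2 (adjusted p = 0.0264).

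The genes named in the fusion were given no call in these cells. Ep300 was 121 and 91.5 CPM in fusion T cells, against 126 in wild type, with a log2 fold change of -0.26 ± 0.33 (SE; adjusted p = 0.990 by edgeR). Zfp384, the mouse gene for ZNF384, had 13 and 7 UMIs in fusion T cells, against 12 in wild type, or 40.2 and 18.3 CPM, against 17.4 (adjusted p = 0.987). The counts do not tell fusion transcripts from normal ones, and they are too few to bound a change closely.

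Whether the fusion effect in T cells differed from that in mature B cells of the same libraries was tested in 1 model over both kinds of sum with the library as a term, a test added after the data had been seen. It called 27 of 8090 genes (0.334%), and the same test over all gated cells called 2 of 8065 (0.0248%). Cd69 differed between the cell types, with a log2 difference of -1.76 ± 0.39 (SE; adjusted p = 0.00355 by edgeR), which became -1.16 without fusion replicate 1 and -2.29 without replicate 2. S1pr1 differed by 1.64 ± 0.41, at 184 and 201 CPM in fusion T cells, against 91.1 in wild-type T cells, and at 70.3 and 63.2 CPM in fusion B cells, against 97.4 in wild-type B cells (adjusted p = 0.0192). Ly6a differed by 1.80 ± 0.44 (adjusted p = 0.0178), and its mature B cell levels were 62.1 and 58.4 CPM in fusion, against 78.4. Kcnn4 did not pass (log2 difference 1.25 ± 0.54; adjusted p = 0.818). For Dapl1 and Cxcr6, which had no UMI in mature B cells, the difference could not be estimated.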

How the data were processed

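Droplet 3′ single-cell RNA libraries of mouse bone marrow were deposited as raw UMI counts per gene and barcode. Per the submitters' processing notes, the authors used bcl2fastq 2.20.0.422 and Cell Ranger 5.0.1 with GRCm38; version 5.0.0 stands in the headers of the matrices. A cell was kept with 1000 or more UMIs, 400 or more genes and a mitochondrial share of up to 10%. Doublets predicted by scrublet (scanpy 1.11.5, expected rate 0.06) were 225 and 318 in fusion and 194 in wild type, and were removed only in an alternative.

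Counts were summed per library and cell group and tested with edgeR 4.0.16 (quasi-likelihood, TMM scaling, filterByExpr, Benjamini-Hochberg adjustment over all genes tested, threshold 0.05) in R 4.3.3. The SE of an edgeR log2 fold change was its absolute value over the square root of the quasi-F statistic. Such an SE follows the test's variance, which is moderated over genes, and is not a separate estimate of the spread between libraries. DESeq2 1.42.0 was an alternative. CPM (UMI counts scaled to a common library total) were computed from summed UMIs, on TMM-scaled library sizes for values with a test and on plain sizes for cell group descriptions, sums over marker lists and values outside the gate or over all kept cells. Shares carry 95% Clopper-Pearson intervals, and a group without UMIs was set to a floor of 3 counts over the group. PCR copies are collapsed by UMIs, and the intervals cover counting error only. The labels do not say that libraries came from separate animals, so p-values measure the spread between libraries, which may be technical. No cell barcode was shared by the gated cells.

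On simulated counts with 100 changed genes per size, edgeR recovered 73% of genes changed by 2 and 93% of those changed by 3 on the log2 scale in T cells. There were 3 false calls among the unchanged genes, of 6413 genes with 200 changed. In all gated cells it recovered 83% and 95%, with 10 false calls among the unchanged genes, of 6622 genes with 200 changed. The counts were drawn around shared means with the same dispersion for every gene. They held no difference in cell make-up and no single cells rich in a gene. The simulation therefore does not give the error rate in the real data.

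The cell group, the gene lists and the tests were chosen with earlier results of these data known. Genes were named by rule: up to 10 per direction by size among called genes with a mean of at least 20 CPM, both fusion libraries on the same side of wild type and a level not mainly found outside the gate, and up to 4 per list, called members first. A free place was filled by size alone with Zkscan14, a zinc finger gene, at 34.0 and 26.1 CPM in fusion T cells, against 7.26 in wild type, which was not called. S1pr1 in T cells, Klf4 by cell group and the genes set against mature B cells were picked out after their values were seen. Single values of 2 genes of these lists are not reported here.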

Additional observations from a re-analysis of the deposited data

Results flagged for a closer look

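The fusion effect differed between T cells and mature B cells in 27 genes by a test of the difference itself (edgeR quasi-likelihood with the library as a term, adjusted over 8090 genes), a test added after the data had been seen, and 12 of them are named here. Among lymphocyte genes, the log2 difference, T cells minus mature B cells, was 1.64 for S1pr1, -1.76 for Cd69, 1.80 for Ly6a and -2.45 for Ccl4. Among genes of other lineages it was 1.67 for Car1 and 1.52 for Car2 (erythroid), 2.0 for Prtn3 and 3.25 for Elane (primary granules), and -1.23 for S100a8 and -1.30 for S100a9 (neutrophil). It was 3.38 for Apoe and 3.40 for Ccr2. A positive difference need not be a rise in T cells. Ccr2 was 121 and 134 CPM in fusion T cells, against 273 in wild-type T cells, and 2.70 and 1.58 CPM in fusion B cells, against 49.1 in wild-type B cells. Elane was 47.7 and 37.5 CPM in fusion T cells, against 100.2, and 16.2 and 23.7 CPM in fusion B cells, against 473. Prtn3 was 60.4 and 375 CPM in fusion T cells, against 250.4, and 40.5 and 216 CPM in fusion B cells, against 601. The fusion B cells lay on both sides of wild type for Car1 (73.0 and 651 CPM, against 397) and Car2 (113 and 725 CPM, against 466). Without fusion replicate 1 the difference was 0.55 for Car1, 0.01 for Car2, -1.16 for Cd69, -0.59 for S100a8 and -0.71 for S100a9, and without replicate 2 it was 3.53 for Car1, 3.53 for Car2, -2.29 for Cd69, -1.78 for S100a8 and -1.80 for S100a9. Ccl4 gave -2.91 without replicate 1 and -0.43 without replicate 2, and Ccr2 gave 2.62 and 2.05. Over all gated cells against mature B cells, Apoe differed by 3.78 (adjusted p = 0.00837 by edgeR).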

How the results depend on the processing

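The ratio of fusion to wild type stayed on the same side of 1 for each share of cells in every alternative tried. With cells of more other-lineage than gate UMIs removed, 38 gated cells were left in wild type, of which 2 were CD3-negative, and the ratio for T cells among gated cells was 1.06, against 1.33 in the gate as described. In the stricter T cells the intervals of T cell shares overlapped between fusion replicate 1 (63 cells, up to 1.07%) and wild type (90 cells). Leaving out a fusion library gave ratios of 0.487 to 0.560 for T cells, 0.358 to 0.432 for all gated cells, 0.0199 to 0.0954 for CD3-negative cells and 1.30 to 1.36 for T cells among gated cells. Counts of called genes depended on the processing. Bias-adjusted edgeR, the removal of cells over 5% neutrophil UMIs, the stricter T cells, the test of T against mature B cells and the removal of 1 fusion library from it were added after the data had been seen. In T cells (48 called), bias-adjusted edgeR called 14, DESeq2 2, doublet removal left 19, a gate of at least 3 UMIs 4, removal of cells with more other-lineage than gate UMIs 8, removal of cells over 5% neutrophil UMIs 21 and the stricter T cells 20. In all gated cells (77 called), the counts were 6 with bias-adjusted edgeR, 0 with DESeq2, 26 without doublets, 7 without other-lineage cells and 38 without cells over 5% neutrophil UMIs. In CD3-negative cells (9 called), they were 0 without the filter on low counts (85 at an unadjusted p under 0.05), 14 with bias-adjusted edgeR, 0 with DESeq2 (20 at an unadjusted p under 0.05) and 5 with T cells defined by 2 CD3 UMIs or a receptor constant region.

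For the difference between T and CD3-negative cells (7 called), the counts were 0 with bias-adjusted edgeR (120 unadjusted), 2 with DESeq2, 4 without doublets and 0 with the other T cell definition (149 unadjusted). For gated against mature B cells (2 called), they were 30 without the filter, 28 with DESeq2's size factors, 0 with bias-adjusted edgeR (311 unadjusted), 0 with DESeq2 (25 unadjusted), 7 without doublets, 8 at 3 gate UMIs, 5 at a mitochondrial limit of 5% and 9 without other-lineage cells. For T against mature B cells (27 called), they were 4 with bias-adjusted edgeR, 0 with DESeq2 (23 unadjusted), 13 at the mitochondrial limit, 8 without other-lineage cells, 17 without neutrophil-rich cells and 16 with the stricter T cells.

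Of 28 named genes called in T cells, 28 kept their direction with DESeq2 and when either fusion library was left out, where no test was made. For genes named by size this was largely set in advance, since the rule asked for both fusion libraries on the same side of wild type. Of the 28, 2 were still called with DESeq2, 10 with bias-adjusted edgeR and 4 at a gate of at least 3 UMIs. Signs turned for Cpa3 in T cells (1.11), Mcpt8 in T cells (0.13) and Prss34 in T cells (1.07) under the other T cell definition, and for Ctsg in T cells (1.82) under the stricter definition. Without other-lineage cells they turned for Ccr2 in gated cells (0.56), Gzma in gated cells (1.87) and Trdc in gated cells (-1.61). At 3 gate UMIs they turned for Mcpt8 in gated cells (-5.16) and Prss34 in gated cells (-4.15), and Prss34 ranged from -3.20 to 2.26 when 1 fusion library was left out. Beyond the single cells named above, the cause was not tested. Adjusted p-values that DESeq2 left empty were kept so. No paired analysis was possible because wild type has 1 library, so the genotypes share fewer than 2 replicate numbers. The differences between cell groups of the same libraries had the library as a term throughout.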
